A study of Mus musculus with 32 samples.

Results

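The interleukin 1 family and inflammasome genes followed here are 10 genes: Il1a, Il1b, Il1rn, Il18 and Il33 for the ligands and the receptor antagonist, Il1r1 and Il1rap for the receptor, and Nlrp3, Casp1 and Pycard for the inflammasome. They were chosen by name, as the array probes whose gene name in the raw files is one of these symbols, which finds 18 of the 56605 probes that are not controls. Of these, 17 passed the filter on dim probes, and all 10 genes are among the 23644 genes tested. The exception was the second Pycard probe, A_66_P121765.

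The livers came from 32 male F1 C57BL/6J mice at 21 weeks of age, in 4 groups of 8: control mice on a normal diet, control mice on a Western diet, and mice given E171 on each of these diets. E171 is food-grade titanium dioxide (fg-TiO2), mixed into pellets to reach a daily dose of 10 mg/kg as the target. Mothers (F0) were started on pellets with or without E171 ahead of mating, and the offspring kept the mother's treatment from birth. The Western diet began at adulthood and was fed for 16 weeks; the treatment protocol in the labels calls it a high-fat diet. All 4 groups share strain, sex and age, and the mice of each diet had the same exposure period. Litter is not given, so littermates may be counted as separate mice.

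Interleukin 1 alpha and beta act through the receptor chain encoded by Il1r1, which needs the accessory protein encoded by Il1rap to signal through MyD88 to NF-kB. The antagonist encoded by Il1rn occupies the same receptor without signalling. Interleukins 1 beta and 18 are made as precursors that caspase 1 cleaves after an inflammasome forms, in which a sensor such as NLRP3 recruits caspase 1 through the adaptor ASC, the product of Pycard. Interleukin 33 is stored in the nucleus and released from damaged cells. In liver, macrophages are a main source of interleukin 1 beta. The array measures mRNA and so shows neither cleavage nor secretion.

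Total RNA was measured on 1 one-colour Agilent array per mouse. A level is the log2 processed signal of a probe minus the 75th percentile of its array, so that 0 is the 75th percentile and 1 unit is a doubling, and a level is compared only within 1 probe. Arrays had 32164 to 37261 probes well above background and 0 saturated spots, and correlations between arrays of a group ran from 0.980 to 0.995. Differences are log2 differences between group means with the standard error (SE). Adjusted p values are from limma with Benjamini-Hochberg adjustment over all 23644 genes, and a gene was called at an adjusted p under 0.05. The median gene was 0.10 lower on the Western diet in both diet comparisons, which is the background for the differences below.

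In control mice the Western diet was accompanied by higher mRNA of 5 of the 10 genes (Il1a, Il1rn, Il33, Casp1 and Pycard) and lower mRNA of 3 (Il18, Il1r1 and Il1rap). Il1b and Nlrp3 did not pass the test. Among all genes, 18.5% were called higher and 28.8% lower in the same comparison. In E171 mice 6 were higher on the Western diet (the same 5 and Il1b), against 22.2% of all genes, and 2 were lower (Il18 and Il1rap), against 31%. The median difference of the 10 genes was 0.38 in controls and 0.63 in E171 mice. The diet groups did not overlap for 2 genes in controls (Il1rn and Il18), against 9.96% of all genes, and for 5 in E171 mice (Il1rn, Il18, Il33, Il1rap and Pycard), against 18%. With the deposited value table, the share of higher genes among all called genes in controls was 54.4% instead of 39.2%, while the members called higher numbered 5 under both.

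**Figure D1:**
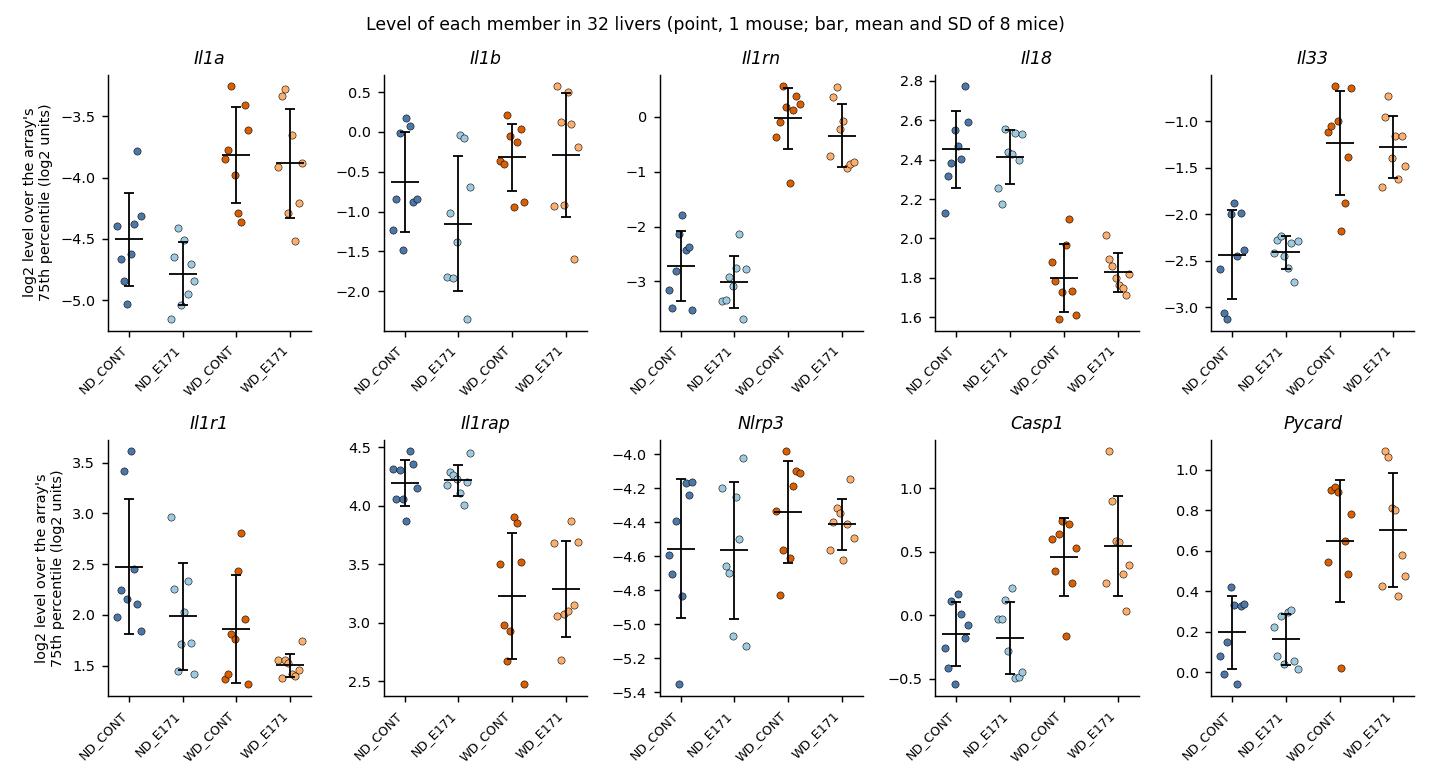
Level of each of the 10 genes in every mouse (vertical axis, log2 units over the 75th percentile of the array; horizontal axis, group; each point 1 mouse, bars the mean and SD of 8 mice). The Il1rn points of both Western diet groups lie above all points of both normal diet groups, the Il18 points lie below them, and the Nlrp3 points overlap throughout.

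Il1rn, the receptor antagonist, had the largest difference of the 10. Its level in normal diet controls ran from -3.52 to -1.79 with a median of -2.62, and in normal diet E171 mice from -3.69 to -2.14 with a median of -3.00. In Western diet controls it ran from -1.20 to 0.56 with a median of 0.15, and in Western diet E171 mice from -0.93 to 0.55 with a median of -0.46. Every Western diet mouse was above every normal diet mouse. The difference was 2.69 (SE 0.27, adjusted p = 3.81e-09), or 6.45-fold, in controls and 2.67 (SE 0.27, adjusted p = 3.18e-09), or 6.35-fold, in E171 mice. With normexp background correction, which adds 50 to every intensity, the differences were 1.73 and 1.57, both called. This addition shrinks log2 differences, most for dim probes. A second Il1rn probe gave smaller rises of 1.26 and 0.999, both called over all kept probes.

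Il33, the nuclear alarmin, rose by a smaller amount. Its lowest, median and highest levels were -3.13, -2.42 and -1.88 in normal diet controls and -2.73, -2.36 and -2.24 in normal diet E171 mice. In Western diet controls they were -2.18, -1.09 and -0.63, and in Western diet E171 mice -1.71, -1.28 and -0.73. The E171 groups were apart, and in controls 1 Western diet mouse (replicate 5) lay within the normal diet range. The difference was 1.20 (SE 0.20, adjusted p = 1.25e-05) in controls and 1.13 (SE 0.20, adjusted p = 2.3e-05) in E171 mice. With normexp background correction the differences were 0.66 and 0.61, both called. A second probe, nearer the transcript's 5′ end, was well above background on 0 and 2 of 8 normal diet arrays (control and E171) and 7 and 7 of 8 Western diet arrays. In controls its level was 1.62-fold higher on the Western diet. For this, normal diet signals were set no lower than the lowest signal well above background on each array. The fold is thus a lower bound for the signal used here. In E171 mice the second probe rose by 0.76.

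Il1a encodes interleukin 1 alpha, which is active without caspase 1. Its lowest, median and highest levels were -5.03, -4.51 and -3.78 in normal diet controls and -5.15, -4.77 and -4.41 in normal diet E171 mice. They were -4.36, -3.81 and -3.25 in Western diet controls and -4.52, -3.90 and -3.28 in Western diet E171 mice. The control groups overlapped, with 4 of 8 Western diet controls below the highest normal diet control, and the E171 groups overlapped too. All 8 Western diet mice lay above the normal diet mean in each comparison. Il1a rose by 0.69 (SE 0.18, adjusted p = 0.00259) in controls and 0.90 (SE 0.18, adjusted p = 0.000139) in E171 mice. The probe is dim, being well above background on 5 of 8 normal diet E171 arrays and all arrays of the other groups. With normexp background correction the differences were 0.04 and 0.10 and neither was called. Normexp adds 50 to every intensity, which shrinks log2 differences of dim probes. Why the calls were lost was not tested, and the call of Il1a depends on the background correction. With the deposited value table the differences were 0.36 and 0.42, both called.

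Il1b, encoding interleukin 1 beta, varied widely between mice of a group. In normal diet controls it ran from -1.48 to 0.18 with a median of -0.84, and in normal diet E171 mice from -2.35 to -0.04 with a median of -1.20. In Western diet controls it ran from -0.94 to 0.21 with a median of -0.25, and in Western diet E171 mice from -1.60 to 0.57 with a median of -0.04. All groups overlapped, with SDs of 0.42 to 0.85. The difference was 0.31 (SE 0.33, adjusted p = 0.451) in controls, with a 95% interval of -0.36 to 0.99, and 0.86 (SE 0.33, adjusted p = 0.0296) in E171 mice. The E171 value lost its call when any of 6 mice was left out (0.69 to 0.80, adjusted p of 0.0558 to 0.0772). The difference between both diet effects was 0.55 (SE 0.47, adjusted p = 0.999), so the diet effect on Il1b was not shown to differ between control and E171 mice.

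Il1b has 3 probes, and their first 30 bases are shown because the call rests on 1 of them, A_51_P212782.
Il1b A_51_P212782: aggttcctataatatggatgagaattttta
Il1b A_66_P114500: ggaaaagcggtttgtcttcaacaagataga
Il1b A_55_P2720183: aggagctatcacttgaccacatctgttttc
The probe A_51_P212782 lies at chr2:129190347-129190406 (mm9, minus strand), A_66_P114500 at chr2:129190880-129190939 and A_55_P2720183 at chr2:129195465-129195524. A_66_P114500 differed by 0.50 in controls and 0.84 in E171 mice (adjusted p = 0.0588 over all kept probes), and the dimmest, A_55_P2720183, by -0.03 and 0.96. Neither of these was called in either diet comparison, and the 3 probes had the same sign only in E171 mice.

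Il18, the other caspase 1 substrate, fell. Its lowest, median and highest levels were 2.13, 2.44 and 2.77 in normal diet controls and 2.17, 2.43 and 2.55 in normal diet E171 mice. They were 1.59, 1.76 and 2.10 in Western diet controls and 1.71, 1.81 and 2.02 in Western diet E171 mice. The diet groups did not overlap in either comparison. Il18 differed by -0.65 (SE 0.08, adjusted p = 9.62e-08) in controls, a level 1.57-fold lower, and by -0.59 (SE 0.08, adjusted p = 4.12e-07) in E171 mice. Its SE was the smallest of the 10 genes.

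Il1rap, the receptor accessory protein, had the largest fall. The probe that stands for the gene, wherever Il1rap is named without a probe, is A_52_P467232, annotated to NM_134103. On this probe the lowest, median and highest levels were 3.87, 4.22 and 4.46 in normal diet controls. They were 4.01, 4.22 and 4.45 in normal diet E171 mice. On the Western diet they were 2.47, 3.24 and 3.90 in controls and 2.68, 3.13 and 3.87 in E171 mice. The mice of a group were close together on the normal diet (SD 0.20 and 0.13) and spread out on the Western diet (SD 0.54 and 0.41). Il1rap differed by -0.97 (SE 0.17, adjusted p = 3.88e-05) in controls, a level 1.96-fold lower, and by -0.93 (SE 0.17, adjusted p = 5.4e-05) in E171 mice. In bulk RNA, fewer cells of a type and less RNA per cell cannot be told apart, here and for every gene described.

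The 4 Il1rap probes lie on chromosome 16 (mm9, plus strand) in transcripts that differ at their 3′ end, so their first 30 bases are shown to identify them; NM_134103 is known as the secreted form and NM_008364 as the membrane form.
Il1rap A_52_P467232, NM_134103: gatgttgtcaacgcctttgtttctaaatgt
Il1rap A_55_P2807476, NM_008364: tgtatacagccacatgggatttaattctct
Il1rap A_52_P207374, NM_001159318: gccttcatttcatctgtttgactagaactc
Il1rap A_55_P2041432, ENSMUST00000096129: ccattttctttaaccagctcttccttgatc
They lie at chr16:26701498-26701557, chr16:26717577-26717636, chr16:26724859-26724918 and chr16:26725291-26725350 in that order. All 4 fell in both diet comparisons and were called over all kept probes. In controls the differences were -0.97, -0.68, -1.03 and -0.94, and in E171 mice -0.93, -1.29, -0.79 and -0.998, in the same order. For the NM_008364 probe the fall was 0.61 larger in E171 mice (an interaction of -0.61, SE 0.29), which did not pass the test (unadjusted p = 0.0415, adjusted p = 0.992).

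**Figure D2:**
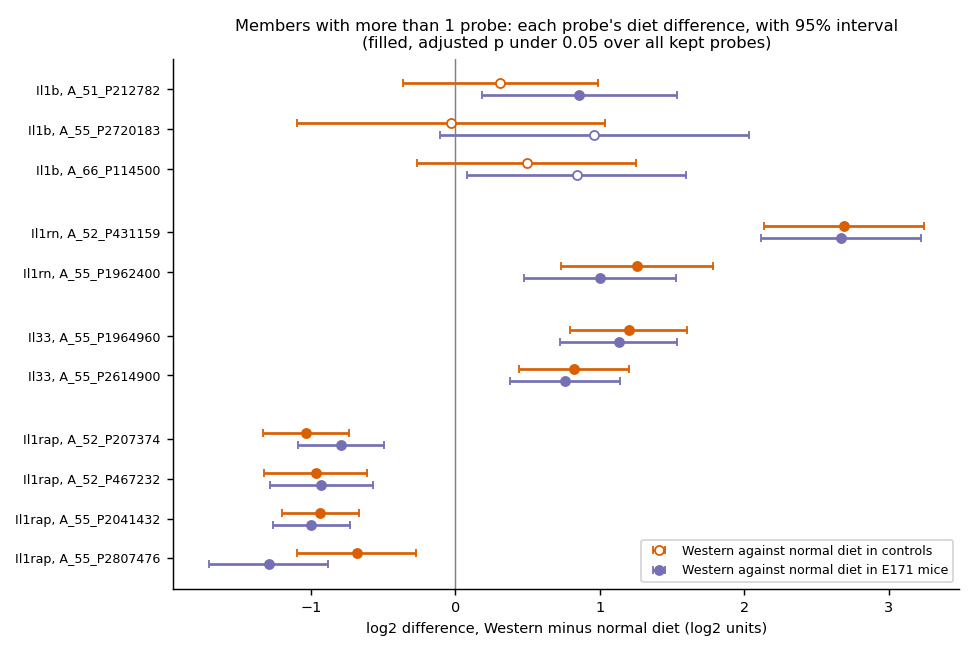
Log2 difference between Western and normal diet for each probe of the members with more than 1 probe (horizontal axis, log2 units; points with 95% interval, filled where the adjusted p over all kept probes is under 0.05). The 4 Il1rap probes lie left of 0 in both comparisons, and both Il1rn and both Il33 probes lie right of it.

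Il1r1, the signalling receptor chain, showed a difference near the size of its spread. Its lowest, median and highest levels were 1.84, 2.20 and 3.61 in normal diet controls and 1.42, 1.88 and 2.97 in normal diet E171 mice. They were 1.31, 1.79 and 2.81 in Western diet controls and 1.38, 1.49 and 1.74 in Western diet E171 mice. The groups of each comparison overlapped, though every Western diet E171 mouse lay below every normal diet control, and the Western diet E171 mice were close together (SD 0.12, against 0.67, 0.52 and 0.53 in normal diet control, normal diet E171 and Western diet control mice). Il1r1 differed by -0.62 (SE 0.24, adjusted p = 0.0369) in controls and differed by -0.48 (SE 0.24, adjusted p = 0.0929) in E171 mice. The call in controls was lost when any of 7 mice was left out (-0.61 to -0.45, adjusted p of 0.0538 to 0.104), and the adjusted p was 0.0841 when only the groups compared entered the fit.

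Of the inflammasome genes, Casp1 and Pycard rose and Nlrp3 did not pass the test. For Casp1, encoding caspase 1, the lowest, median and highest levels were -0.55, -0.13 and 0.17 in normal diet controls and -0.49, -0.16 and 0.21 in normal diet E171 mice. On the Western diet they were -0.16, 0.56 and 0.74 in controls and 0.03, 0.49 and 1.29 in E171 mice. The groups overlapped, and 7 of 8 Western diet controls and 8 of 8 Western diet E171 mice were above the normal diet mean. Casp1 rose by 0.61 (SE 0.15, adjusted p = 0.00171) in controls and 0.72 (SE 0.15, adjusted p = 0.000221) in E171 mice.

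Pycard, encoding the ASC adaptor, had lowest, median and highest levels of -0.06, 0.24 and 0.42 in normal diet controls and 0.01, 0.15 and 0.31 in normal diet E171 mice. On the Western diet they were 0.02, 0.72 and 0.91 in controls and 0.38, 0.69 and 1.09 in E171 mice. Only the E171 groups were apart. Pycard rose by 0.45 (SE 0.12, adjusted p = 0.00197) in controls and 0.54 (SE 0.12, adjusted p = 0.000252) in E171 mice.

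Nlrp3, the sensor, was measured by 1 dim probe that was well above background on 6, 6, 8 and 7 of 8 arrays of control and E171 mice on the normal diet and control and E171 mice on the Western diet. Its medians in that order were -4.49, -4.58, -4.26 and -4.40, within a range over all mice of -5.35 to -3.98. All groups overlapped. The difference was 0.22 (95% interval -0.11 to 0.55, adjusted p = 0.272) in controls and 0.15 (95% interval -0.17 to 0.48, adjusted p = 0.426) in E171 mice. Both intervals include 0.

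**Figure D3:**
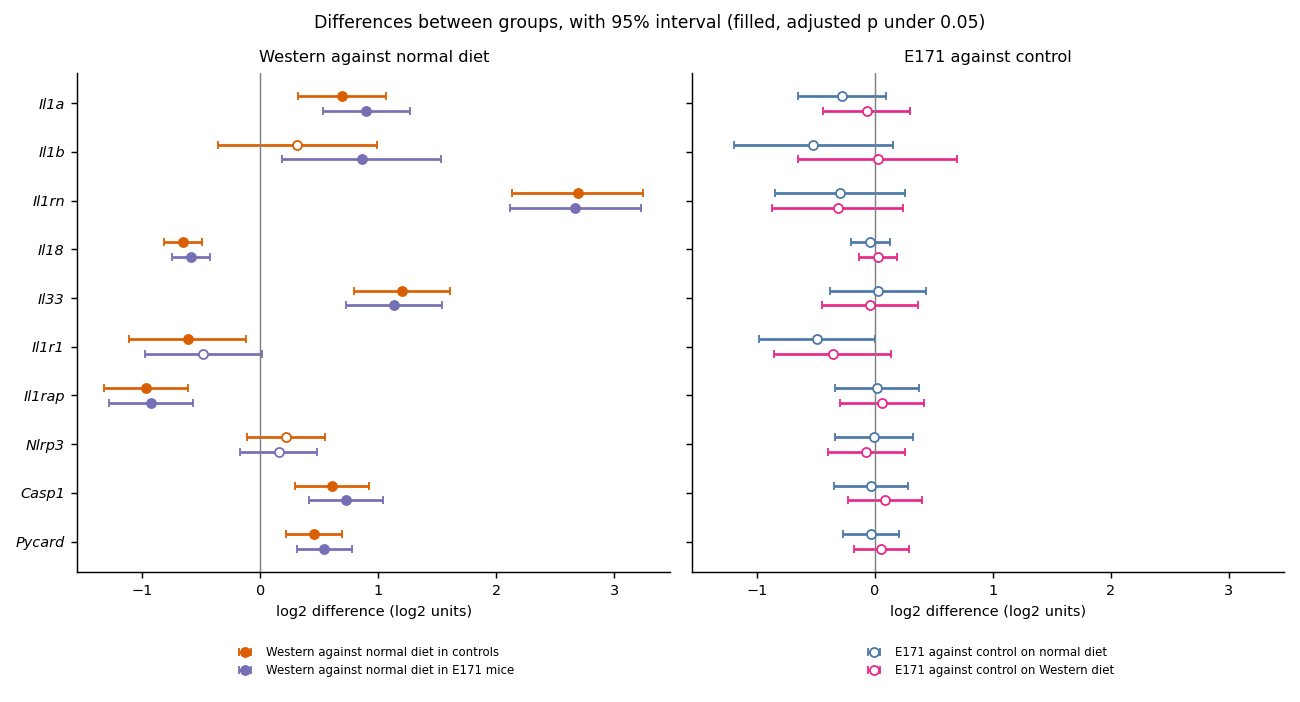
Log2 difference of each of the 10 genes, Western minus normal diet on the left and E171 minus control on the right (horizontal axis, log2 units; points with 95% interval of the fit over 32 mice, filled where the adjusted p is under 0.05). Diet differences run from -0.97 for Il1rap to 2.69 for Il1rn, and all E171 points are open.

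1 mouse, replicate 5 of the Western diet controls, was nearest to the normal diet level for several genes. It was the lowest of its group for Il1b, Il1rn, Il33, Casp1 and Pycard (-0.94, -1.20, -2.18, -0.16 and 0.02) and the highest for Il1rap (3.90). Without it the same 8 genes were called in controls, and the differences were 2.86 for Il1rn, 1.34 for Il33, 0.69 for Casp1, 0.54 for Pycard and -1.06 for Il1rap. Arrays lay on 4 slides with 2 mice of each group on each. Within slides, Il1a, Il1rn, Il33, Casp1 and Pycard were higher and Il18, Il1r1 and Il1rap lower on the Western diet on 4 of 4 slides in both comparisons. Each slide sets 2 mice against 2, and some of these values were near 0. The smallest were 0.01 for Pycard and 0.08 for Casp1 in controls and -0.02 for Il1r1 in E171 mice. Il1b was higher on 3 of 4 slides in both, and Nlrp3 on 2 of 4.

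The promoters of all 10 members were searched for 4 motifs. RefSeq starts (GRCm38.p6) matched all 10 genes, with 15 windows of 250 bases upstream of a start. The motifs were NF-kB (by its consensus), PU.1 (GAGGAAGT), C/EBP (TTGCNNAA) and AP-1 (TGANTCA), on both strands; AP-1 is its own reverse complement and no match overlapped another motif's. Of all 32851 such windows, 3.9% hold NF-kB, 2.44% PU.1, 9.56% C/EBP and 6.75% AP-1. Of the 10 genes, AP-1 was in 2 (Il1a, Il1rn), C/EBP in 3 (Il33, Il1r1, Pycard), NF-kB in 2 (Il1r1, Nlrp3) and PU.1 in 1 (Pycard). The shares above are per window, and of the 15 windows AP-1 was in 2, C/EBP in 3, NF-kB in 2 and PU.1 in 1. The 4 windows of rising genes that hold a match are shown 5′ to 3′ in the gene's direction, matches in capitals.
Il1a, chr2:129309973-129310222, minus strand: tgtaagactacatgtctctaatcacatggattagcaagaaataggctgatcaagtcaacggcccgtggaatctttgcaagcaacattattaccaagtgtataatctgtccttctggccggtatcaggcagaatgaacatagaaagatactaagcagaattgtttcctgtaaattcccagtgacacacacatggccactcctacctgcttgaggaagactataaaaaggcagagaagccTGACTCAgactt
Il1rn, chr2:24336610-24336859, plus strand: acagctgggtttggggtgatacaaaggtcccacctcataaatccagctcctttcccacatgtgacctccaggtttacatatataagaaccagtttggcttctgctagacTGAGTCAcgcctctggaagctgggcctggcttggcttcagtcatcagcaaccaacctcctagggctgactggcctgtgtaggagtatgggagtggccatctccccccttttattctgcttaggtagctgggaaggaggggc
Il33, chr19:29945540-29945789, plus strand: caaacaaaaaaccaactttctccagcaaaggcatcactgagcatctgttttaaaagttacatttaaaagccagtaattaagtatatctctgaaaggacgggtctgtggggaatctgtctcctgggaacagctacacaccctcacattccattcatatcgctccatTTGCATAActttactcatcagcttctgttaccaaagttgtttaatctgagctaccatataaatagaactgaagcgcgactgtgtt
Pycard, chr7:127993868-127994117, minus strand: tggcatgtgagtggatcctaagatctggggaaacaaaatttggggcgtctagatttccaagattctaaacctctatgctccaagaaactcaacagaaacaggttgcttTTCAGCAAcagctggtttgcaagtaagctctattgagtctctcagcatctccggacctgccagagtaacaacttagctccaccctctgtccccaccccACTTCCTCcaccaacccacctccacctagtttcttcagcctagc
In Il1a the AP-1 match lies 6 to 12 bases before the start and in Il1rn 135 to 141, in Il33 the C/EBP match 78 to 85, and in Pycard the PU.1 match 37 to 44 and the C/EBP match 135 to 142. Casp1, the other rising gene, holds none of these letters in its window, nor does Il1b. A match is a description of sequence and no evidence of binding.

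E171 was compared with control on each diet, and 0 of the 10 genes was called. On the normal diet 0% of all genes was called (958 at an unadjusted p under 0.05), on the Western diet 0.381% (90 genes, 2821 at an unadjusted p under 0.05), for the average of both diets 0.368% (87 genes, 2600 at an unadjusted p under 0.05) and for the interaction 0% (1222 genes at an unadjusted p under 0.05). At an unadjusted p under 0.05 there was 1 member in the average (Il1r1) and none in the other three. The 2 E171 comparisons and the 2 diet comparisons use the same mice, so they are not independent of each other.

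On the normal diet the largest E171 differences were -0.52 for Il1b (95% interval -1.20 to 0.15) and -0.49 for Il1r1 (95% interval -0.98 to 0.01), both with adjusted p = 0.999. On the Western diet they were -0.36 for Il1r1 (95% interval -0.85 to 0.14, adjusted p = 0.601) and -0.32 for Il1rn (95% interval -0.87 to 0.24, adjusted p = 0.704). Averaged over both diets, Il1r1 differed by -0.42 (SE 0.17, unadjusted p = 0.0195, adjusted p = 0.344). Its level was below the control mean in 7 of 8 E171 mice on the normal diet and 8 of 8 on the Western diet. The intervals of Il18 were the narrowest, at -0.20 to 0.12 on the normal diet and -0.13 to 0.19 on the Western diet. Those of Il1b were the widest and reached 0.70 on the Western diet, so they include differences of that size. Among the Il1rap probes, the 3′-most (A_55_P2041432) was higher with E171 by 0.31 in the average of both diets (unadjusted p = 0.00209, adjusted p = 0.136 over all kept probes), while the NM_134103 probe differed by 0.04 and the NM_008364 probe by -0.17. On the Western diet the NM_008364 probe differed by -0.48 (unadjusted p = 0.0254, adjusted p = 0.331).

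Ordered by group mean, Il1a, Il1rn and Nlrp3 ran from Western diet control through Western diet E171 and normal diet control to normal diet E171. Il1b, Casp1 and Pycard ran the same way with the first pair exchanged. Il33 was also higher in both Western diet groups, and Il18, Il1r1 and Il1rap were higher in both normal diet groups. Within a diet no neighbours differed beyond their spread by the test. Across diets, the neighbours in the order were not tested directly where one was an E171 and the other a control group.

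Mice of a group differed in several members together. Each level was centred on its group mean and Pearson's r taken over 32 mice, as a description; the values share array and RNA sample. Over the 45 pairs the median r was 0.12. The highest were Il33 with Pycard (0.73), Il1rn with Pycard (0.70) and Il1rn with Il33 (0.67), and the lowest were Il1rap with Pycard (-0.77) and Il1rap with Il33 (-0.72). Within each group of 8, r of Il1rap with Pycard was -0.48 in controls and -0.72 in E171 mice on the normal diet, and -0.77 and -0.90 on the Western diet. That of Il1rap with Il33 was -0.28, 0.30, -0.93 and -0.90 in the same order, so it had the opposite sign in normal diet E171 mice. Il18 and Nlrp3 had r between -0.13 and 0.38 with every other member.

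**Figure D4:**
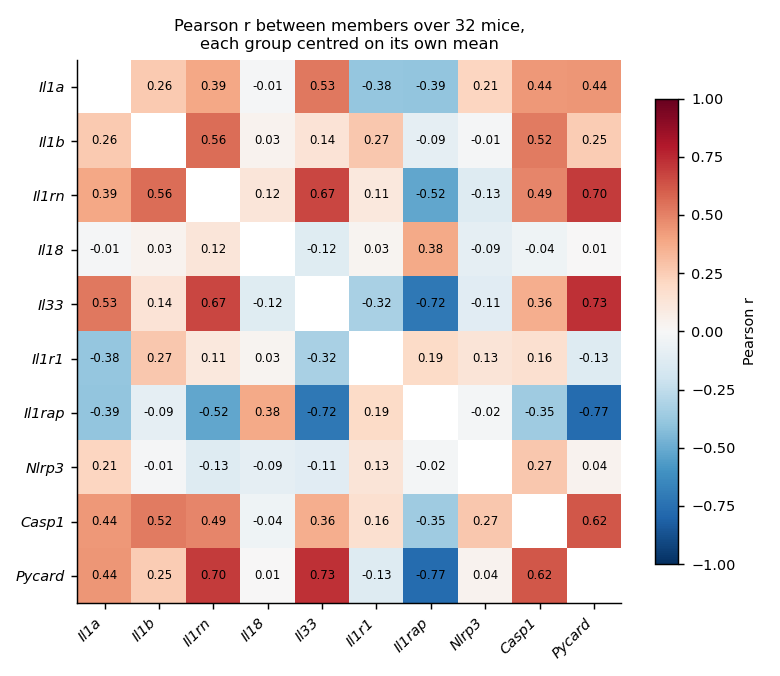
Pearson's r between the levels of each pair of members over 32 mice after each group was centred on its mean (rows and columns, genes; colour, r from -1 to 1). Il1rn, Il33 and Pycard form a block of r from 0.67 to 0.73, and Il1rap has negative r with each of them, down to -0.77.

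The genes nearest to each member were sought by the same r among 18246 other named genes. For Il1rap they were AW111846 (0.95), Otc (0.93), encoding a urea cycle enzyme, and Nox4 (0.91). For Pycard they were Tmem229b (0.91), Twf2 (0.90) and Cmtm7 (0.90), and for Casp1 Samhd1 (0.88), Ifi205 (0.88) and Itga4 (0.86). For Il1rn they were Csf2rb2 (0.86), Pik3r5 (0.85) and Cd300a (0.83), and for Il33 Aurka, Cdkn3 and Prc1 (0.84 each), known from mitosis. For Il1b they were Rgs1 (0.80), Lilrb4a (0.79) and Lilr4b (0.78), and for Il1r1 Tacc1 (0.87), Arid5a (0.82) and Sh2b2 (0.80). Il18 was nearest to Meiob (0.82), Pdcd4 (0.77) and Nxt2 (0.76), and Il1a to Dip2b (0.77), Stx11 (0.74) and Asb4 (0.71). Nlrp3 had the weakest neighbours, Fnbp4 (0.61), Cacng7 (0.60) and Kcnj13 (0.59). Without the 2 mice farthest from the median of centred Nlrp3, these were 0.45, 0.54 and 0.41. All neighbours were picked as the highest of 18246 values, which favours a high r.

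Other genes of the pathway were taken from 6 lists. Beside all their counts stand the shares of all genes called. These were 18.5% higher and 28.8% lower in controls, and 22.2% and 31% in E171 mice. Among receptors and decoys, 3 of 5 tested genes rose and 1 fell in controls, with a list median of 0.80. The decoy receptor Il1r2 rose by 1.21 (adjusted p = 0.00462) in controls, where 5 of 8 normal diet and 8 of 8 Western diet arrays had it well above background. In E171 mice 0 and 7 of 8 did, and Il1r2 was called higher (adjusted p = 2.52e-06). Its level was 2.73-fold higher with normal diet signals set no lower than the lowest signal well above background on each array. That fold is a lower bound for the signal used here. Il1rl2, the interleukin 36 receptor chain, rose by 1.41 and 1.56; the arrays that had it well above background numbered 3 and 2 of 8 on the normal diet (control and E171) and 7 and 8 of 8 on the Western diet. Il18bp, which binds interleukin 18, rose by 0.80 and 0.97. With normexp background correction, tried on these lists after seeing the data, Il1r2 differed by 0.14 and 0.26 and Il1rl2 by 0.09 and 0.17, neither called in controls and both called in E171 mice. Sigirr, a negative regulator of these receptors, fell by 0.18 and 0.34, and with normexp its difference in controls was -0.13, not called. Il36b (Il1f8 in the files), the only other ligand tested, differed by -0.40 in controls (adjusted p = 0.119) and fell by 0.50 in E171 mice (adjusted p = 0.0461). With normexp its difference in E171 mice was -0.18, not called.

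The signalling chain below the receptor changed little in controls: 0 of 13 genes rose and 1 fell, Tab2 (-0.27, adjusted p = 0.00959), and the list median was 0.00. In E171 mice 3 rose and 2 fell, and 0 of the 13 passed the interaction test. Tab1, which joins the TAK1 kinase complex with Tab2, was the only gene of the 6 lists called with E171 on the Western diet, and with Ccl2 it was called in the average of both diets (Tab1 higher, Ccl2 lower). Among 16 inflammasome sensors and partners, 7 rose and 3 fell in controls, and 8 rose and 2 fell in E171 mice. Mefv, encoding pyrin, rose by 1.14 and 1.49, Nlrc4 by 1.02 and 1.06, and the channel gene Panx1 by 0.94 and 0.90. On the normal diet 6 of 8 control and 1 of 8 E171 arrays had Nlrc4 well above background. With normexp Nlrc4 differed by 0.05 and 0.10, not called, and Mefv rose by 0.72 and 0.91. Nlrp6 fell by 1.04 and 0.98, Nlrp1a by 0.39 in controls (-0.11, not called, in E171 mice) and Naip5 by 0.20 and 0.22.

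Of 11 genes of pyroptosis and processing, 2 rose and 3 fell in controls, close to the 18.5% and 28.8% of all genes called higher and lower. The caspase genes Casp12 and Casp4 rose by 1.14 and 1.08 in controls and 1.21 and 1.14 in E171 mice (Casp12 by 0.74 and 0.77 with normexp). Gsdmd, encoding the pore-forming substrate of caspase 1, fell by 0.49 in controls (adjusted p = 7.77e-07) and 0.47 in E171 mice (adjusted p = 1.22e-06). Ninj1 fell by 0.30 and 0.42, and Gsdme by 0.23 in controls. Of 12 tested genes that interleukin 1 is known to induce, among other stimuli, 8 rose and 0 fell in controls, with a list median of 1.29, and 10 rose in E171 mice. Lcn2 rose by 3.90 and 4.54, Ccl2 by 2.47 and 2.47, and Saa2 by 1.87 and 2.68; Saa1 and Saa2 are near copies whose probes may share signal.

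**Figure D5:**
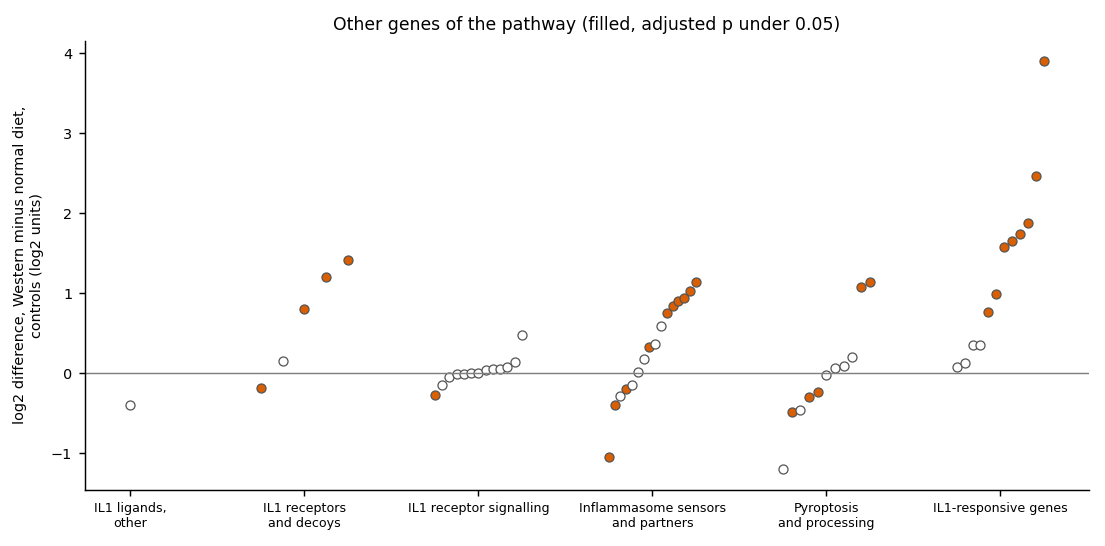
Log2 difference between Western and normal diet in controls for each tested gene of the 6 other lists (vertical axis, log2 units; horizontal axis, list; each point 1 gene, filled where the adjusted p is under 0.05). The interleukin 1 responsive genes reach 3.90, while 12 of 13 signalling genes are open.

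Markers of other cell types moved with diet, and their part in the differences of the members was not tested. Among all genes, 18.5% were called higher and 28.8% lower in controls. Of Kupffer cell and macrophage markers 8 of 12 rose and 1 fell in controls (Cd163 fell by 1.76, Lyz2 rose by 1.51). Of recruited monocyte markers 6 of 7 rose (Cx3cr1 by 3.03, Chil3 by 2.90). Of lipid-associated macrophage markers 5 of 7 rose and 1 fell. For Gpnmb, 0 of 8 normal diet control arrays had it well above background. With those signals set no lower than the lowest signal well above background on each array, Gpnmb was 51.0-fold higher. This fold is a lower bound for the signal used here. Mmp12 rose by 5.62, with 2 of 8 normal diet control arrays well above background. The summed linear level of the macrophage list, in multiples of the 75th percentile, ran from 60.4 to 209 in normal diet controls, 114 to 310 in Western diet controls, 83.6 to 162 in normal diet E171 mice and 158 to 362 in Western diet E171 mice. That of the monocyte list ran from 31.7 to 40.5, 37.1 to 69.8, 34.7 to 40.7 and 48.0 to 72.1 in the same order. That of the lipid-associated list was lower on the Western diet, at 51.05 to 287, 22.5 to 80.4, 97.9 to 142 and 31.4 to 65.6, and its member Fabp5, named here after its values were seen, fell by 2.49. Of neutrophil markers 2 of 8 rose (Cxcr2 by 1.52, S100a8 by 0.93) and 1 fell in controls. Of 8 normal diet control arrays, 3 had Cxcr2 well above background and 1 had Cd8a, a T cell marker. With normexp, 14 of the 57 marker genes called in controls moved by over 1.5 times, with 0 turned in sign. Among them Gpnmb rose by 2.92, Mmp12 by 2.23, Chil3 by 1.13, Ccr7 by 0.88, S100a8 by 0.60, Epcam by 0.43 and Flt3 by 0.37, while Cxcr2 (0.03) and Cd8a (0.08) were not called.

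Of 10 hepatocyte markers 9 fell and 0 rose in controls (Cps1 by 1.12, Fgb by 0.77), and their summed level ran from 6873 to 8655, 4782 to 7403, 6921 to 9146 and 4984 to 6862. Their summed level was high in every mouse, as the label liver implies. Beside the counts here and below stand 18.5% of all genes called higher and 28.8% lower in controls. In controls 4 of 6 dendritic cell markers rose and 1 fell (Ccr7 rose by 1.5, Flt3 by 0.96), 1 of 6 T and NK cell markers rose and 2 fell (Cd8a rose by 1.74, Cd4 fell by 0.61), and 1 of 5 B cell markers rose and 1 fell (Cd79b rose by 0.57, Pax5 fell by 0.34). Of 8 endothelial markers 3 rose and 2 fell (Lyve1 rose by 1.07, Clec4g fell by 0.42), of 8 stellate cell markers 5 rose (Pdgfrb by 1.07, Lrat by 0.76), and of 6 cholangiocyte markers 4 rose (Spp1 by 1.43, Epcam by 1.09). The summed level of several of these lists was lower on the Western diet. A sum of linear levels weights bright markers most, so it can fall while most markers rise. It is no count of cells. In controls the only dendritic cell marker that fell was Siglech (-0.22), and the only neutrophil marker was Csf3r (-0.20). Both are named here after their values were seen. The median of the dendritic cell list was 278 and 236 in normal and Western diet controls and 279 and 240 in E171 mice. In controls those of the T and NK cell list were 62.9 and 39.4, of the endothelial list 61.4 and 56.6 and of the neutrophil list 135 and 117. With E171, 0 markers of any of these 11 lists were called on either diet.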

How the data were processed

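Liver RNA of 32 mice was measured, 1 array each. Per the labels and the submitters' processing notes, arrays were one-colour (Cy3) Agilent arrays read with Agilent Feature Extraction 10.10.1.1, and limma was named for later steps. The authors deposited 62976 spots per array; the signal used, per the file headers, is an intensity from which background was subtracted. A deposited value table holds log2 values whose normalization is not given in the sources used here; it served as an alternative. Outlier spots were left out, log2 signals of replicate spots were averaged and each array's 75th percentile subtracted. A probe was kept if well above background on at least 6 of 8 arrays of a group, and the brightest kept probe stood for a gene. All arrays were fitted in limma 3.58.1 (R 4.3.3) with a mean per group. The 32 arrays limit the precision. Scripts were tested on simulated data.

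The members, lists and tests were chosen with earlier results of these data known. Named from each pathway list were the 3 genes that rose and the 3 that fell most among those called in controls, with any gene called for E171; from each marker list the 2 called genes with the largest difference; and for each member its 3 nearest genes. P values set a difference between group means against the spread between these mice, pooled over the 4 groups and moderated over all genes. The pooled spread does not follow groups of unequal SD, such as those of Il1r1. Promoter sequences are from RefSeq (GRCm38.p6); probe positions are mm9, per the file headers.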

Additional observations from a re-analysis of the deposited data

How the results depend on the processing

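Alternatives were normexp background, 3 other scalings, the deposited value table, no and a stricter filter on dim probes, the mean of a gene's probes, only the groups compared, slide as a block, a replicate block, array weights, and each array left out in turn. The number of members called stayed at 7 or 8 in both diet comparisons and at 0 in the 4 others. Of 2620 member results under alternatives, 2598 stayed the same. These were called with the same sign, or uncalled and moved by less than the member's SD within groups. Uncalled values could change sign within this count, and 0 called values changed sign. In controls Il1a lost its call with normexp (0.04, adjusted p = 0.638), which also moved Nlrp3 to -0.12 (the cause was not tested). Of list genes called in controls, 4 of 28 pathway genes and 3 of 57 markers lost their call with normexp, tried on them after seeing the data, and in E171 mice 7 of 35 and 3 of 64; 0 turned. Il1r1 lost its call in controls with the 75th percentile over probes detected on all arrays, the deposited value table, no filter and only the groups compared (-0.62 to -0.54), and gained one in E171 mice with only the groups compared (-0.48, adjusted p = 0.0311). In E171 mice Il1b lost its call with only the groups compared (0.86, adjusted p = 0.0639) and Il1a with normexp (0.10, adjusted p = 0.189). Same-numbered mice had a mean correlation of 0.07 over 48 pairs, 23 of them over 0.1 (lowest -0.30). Differently numbered mice had -0.01, and 74 of 336 pairs over 0.1. As not every same-numbered pair was over 0.1, the numbers were not taken to pair the mice. That rule is strict and cannot exclude some shared structure by number. With the replicate block 8 members were called in each diet comparison and 0 in the E171 comparisons. Over all genes, the 0.381% called for E171 on the Western diet became 0.16% to 0.723% and the 0.368% in the average 0.115% to 0.63% (0.0846% to 0.706% and 0.195% to 0.55% with an array left out), and the interaction reached 1 gene; with median scaling the higher share of these calls was 22.2% instead of 55.6%, and 21.2% instead of 50.6%. Dim signals limit Nlrp3, Il1a and the weaker Il33 and Il1b probes.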
